A study of Mus musculus with 58 samples.

Results

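The integrated stress response genes described here are a fixed set of 10 genes out of the 20177 genes with a symbol in the count tables. They were Atf4, Atf5, Ddit3, Trib3, Asns, Psat1, Phgdh, Slc7a11, Chac1 and Sesn2, chosen by name as genes that belong to this response. The choice was made with earlier results of these data known. The counts of all annotated 3′ intervals of a gene were added up. Their reads were counted in 58 libraries of mouse E14 embryonic stem (ES) cells, 36 from SLAM-seq and 22 from Quant-seq. The study removed subunits of COMPASS, the enzyme family that writes H3K4me3 at promoters. It asked how transcription responded when this mark was lost, and whether genes could still be switched on by retinoic acid (RA) without it. The paper states that all methylation states of H3K4 are affected at later times, so that their separate roles cannot be told there. Later changes with ligand are therefore given below as changes after COMPASS loss. The part of each mark in them was not tested.

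In the integrated stress response, kinases that sense amino acid shortage, haem shortage, double-stranded RNA or unfolded proteins phosphorylate the translation initiation factor eIF2, which lowers protein synthesis in general but favours translation of the Atf4 mRNA. ATF4 then binds, usually with a C/EBP partner, to short composite elements in the promoters of genes for amino acid synthesis and transport, glutathione turnover and cell death. The response is best known from starved or stressed cells, and ES cells also carry it.

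The composite element reads TGATGNAA, where N is any base, and it was searched on both strands of each promoter, from 250 bases before to 50 bases after the start of the gene (RefSeq sequences, build GRCm38.p6). It was present in 4 of the 10 genes (40%), in 10 of 41 other genes of the pathway with a listed promoter (24.4%) and in 1096 of 27025 genes overall (4.06%). The matched windows are shown because these are the same promoters whose output is followed below. They are written 5′ to 3′ on the strand of the gene, with the element in capitals, and TTGCATCA, TTACATCA and the like are the element read from the opposite strand.
Asns, chr6:7693216-7693241, minus strand: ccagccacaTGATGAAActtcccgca
Chac1, chr2:119351040-119351065, plus strand: tccctgccgTTGCATCActcctgcca
Trib3, chr2:152344030-152344055, minus strand: agctcaggtTTACATCAgccgggcgg
Slc7a11 outer element, chr3:50443663-50443688, minus strand: tcatgtggcTGATGCAAacctggaga
Slc7a11 inner element, chr3:50443644-50443669, minus strand: ctggagaatTTGCATCAtcatgcagc
The first base of the element lay 23 bases before the start in Asns, 193 bases before it in Chac1 and 14 bases after it in Trib3. Slc7a11 carried a pair of elements, 66 and 47 bases before its start. These letters were not in the windows of Atf4, Atf5, Ddit3, Phgdh, Psat1 and Sesn2.

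The 3 degron lines all came from E14 cells. In DPY30-mAID cells the COMPASS core subunit DPY30 carries an auxin-inducible degron and the plant ubiquitin ligase subunit OsTIR1 is expressed, so auxin removes DPY30. The dKO line was made from DPY30-mAID cells by deleting Kdm5a and Kdm5b, which encode H3K4 demethylases, and it also received auxin. The methods name 2 dKO clones, and which clone gave which replicate was not given in the sources used here. In RBBP5-FKBP cells, a single-cell clone, dTAG-13 removes the core subunit RBBP5. SLAM-seq labelled new RNA with 100 µM 4-thiouridine for 60 min, after 0, 2, 8 and 24 h of ligand in DPY30-mAID and RBBP5-FKBP cells (3 replicates each) and after 0, 2, 4, 8, 24 and 48 h in dKO cells (2 replicates each). Quant-seq had no label and followed DPY30-mAID cells before RA (0 h, with DMSO) and in 1 µM RA without LIF. The RA libraries were taken at 8 h and days 1, 2, 4 and 6, with DMSO or with auxin, and each group had 2 replicates. No later library was without RA, so RA, loss of LIF and time in culture cannot be told apart. How long auxin was present before RA was not given in the sources used here, and there was no auxin library at 0 h.

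Libraries held 1264241 to 2543632 reads in Quant-seq, 2013350 to 2806821 in DPY30-mAID, 1721185 to 2852331 in RBBP5-FKBP and 5931269 to 7792404 in dKO SLAM-seq. The 2 DMSO day 6 libraries held identical counts and were used as 1 library, so day 6 with DMSO has no replicate and no test. The share of reads with a T>C conversion, the mark of new RNA, was 5.51 to 16.1% in DPY30-mAID, 4.85 to 10.1% in RBBP5-FKBP, 2.04 to 5.27% in dKO and 0.303 to 0.388% in the unlabelled Quant-seq libraries, and the lowest DPY30-mAID value, 5.51%, was that of 8 h replicate 3. Reads also covered fewer T positions in the dKO and Quant-seq sets, with 11.2 and 11.6 T positions per read against 18.7 in the other lines. Kdm5a gave 26.0 to 40.7 normalized reads (CPM, reads scaled to a common library size) in dKO libraries against 61.1 to 107 in DPY30-mAID, and Kdm5b 109 to 151 against 389 to 946. The 7 ES cell markers summed to 3522 CPM or more in every SLAM-seq library. In Quant-seq they went from 5386 to 5645 CPM at 0 h down to 854 at day 6.

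Levels are given below as CPM for all reads and as T>C CPM for converted reads, both scaled by library sizes from all reads. They are relative to the library, so a change shared by all RNA would not show in the CPM of all reads. Differences are log2 fold changes ± standard error from edgeR's quasi-likelihood test, with p-values adjusted by Benjamini-Hochberg over all genes tested, and a gene rose or fell where adjusted p was below 0.05. Percentages in brackets after a count of members give the share of all tested genes called in the same direction. Of the 10 genes, 9 passed the filter on low counts in DPY30-mAID and RBBP5-FKBP total reads and 10 in dKO and Quant-seq total reads. For T>C reads 7, 4 and 9 passed in DPY30-mAID, RBBP5-FKBP and dKO cells. Slc7a11 had 475 reads in all of SLAM-seq and 222 in all of Quant-seq, and Chac1 was at 13.2 CPM or less in DPY30-mAID and RBBP5-FKBP SLAM-seq libraries. Of the Phgdh reads, 99.0% in SLAM-seq and 99.9% in Quant-seq mapped to more than 1 place in the genome, so its level is uncertain, while the other 9 genes had less than 1% of such reads.

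The response genes rose together during the first days of RA. In DMSO, 3 genes rose at 8 h (8.94%), 10 of 10 at day 1 (27.9%) and 10 of 10 at day 2 (25.4%), with 6 past 2-fold on each of these days. Slc7a11 is in the counts of days 1, 2 and 4. It had no read at 0 h and passed the filter on low counts only through RA groups, so its call adds no support. At day 4, 6 were still above 0 h (27.8%) and 3 were below it (26.5%). The mean was highest at day 2 for 7 genes and at day 1 for Atf5, Ddit3 and Phgdh. The median of the 10 log2 fold changes was 1.66 at day 1 and 1.88 at day 2, beside 0.10 and 0.06 over all genes.

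**Figure D1:**
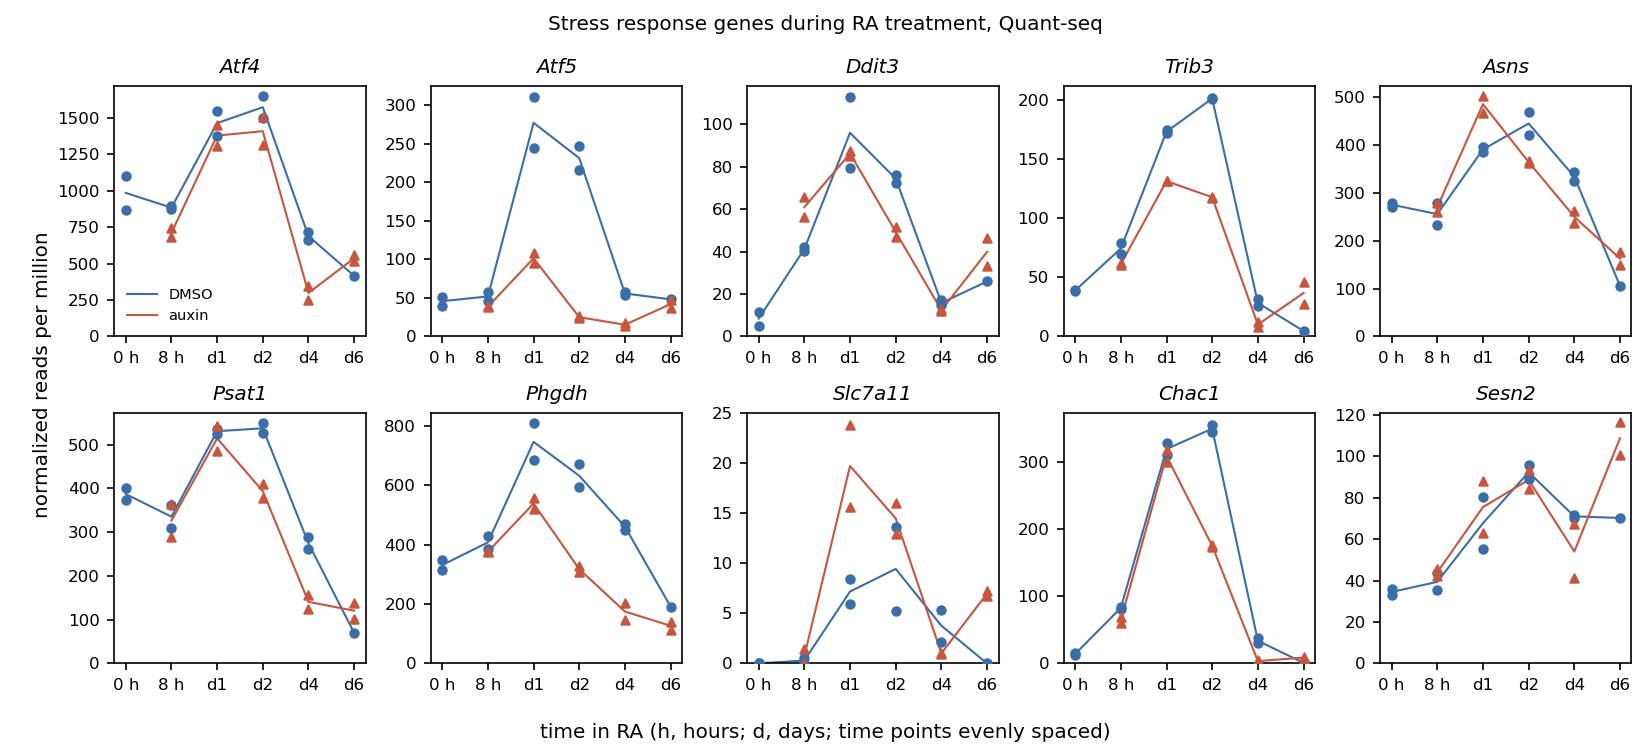
Levels of the 10 genes over RA treatment in Quant-seq, in CPM, with 1 panel a gene, 1 point a library and lines through the means, for DMSO and auxin. Time points are evenly spaced. Day 6 with DMSO is 1 library. Chac1 with DMSO goes from 12.7 and 15.4 CPM at 0 h to 345 and 356 at day 2 and 0.836 at day 6.

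Among the transcription factors, Ddit3, which encodes the cell death factor CHOP, was at 11.7 and 5.13 CPM at 0 h and at 42.4 and 40.1 CPM after 8 h of RA. It reached 113 and 79.4 CPM at day 1 and 72.6 and 76.4 CPM at day 2, then 14.7 and 17.0 CPM at day 4. Every library from 8 h to day 4 lay above both 0 h libraries. The rise was 2.31 ± 0.28 at 8 h (adjusted p = 9.91e-07) and 3.54 ± 0.25 at day 1 (adjusted p = 1.16e-11). At day 4 it was 0.94 ± 0.32 (adjusted p = 0.0156), and that call was lost without 0 h replicate 2 (adjusted p = 0.321) or day 4 replicate 2 (adjusted p = 0.0886). Atf5, a factor related to ATF4, stayed at 45.9 and 57.8 CPM at 8 h beside 51.6 and 39.7 CPM at 0 h, and then stood at 309.8 and 244 CPM at day 1 and 216 and 247 CPM at day 2. It was back at 53.2 and 58.2 CPM at day 4. The day 1 libraries were 6.09-fold above 0 h in the fit (2.61 ± 0.16, adjusted p = 5.65e-13), and at day 4 the difference of 0.29 ± 0.18 did not pass the test (adjusted p = 0.173). Atf4, the central factor, moved least among these factors, with 1102 and 868 CPM at 0 h, 1550.4 and 1378 CPM at day 1, and 1498 and 1649 CPM at day 2. Its rise was 0.57 ± 0.12 at day 1 (adjusted p = 0.000279) and 0.68 ± 0.12 at day 2 (adjusted p = 4.18e-05). At day 4, with 717 and 660.3 CPM, Atf4 fell by 0.52 (adjusted p = 0.000813), a call lost without 0 h replicate 1 (-0.34, adjusted p = 0.0543).

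The targets with the element in their promoters are Chac1, Trib3, Slc7a11 and Asns. Chac1, which encodes a glutathione-degrading enzyme, was at 12.7 and 15.4 CPM at 0 h, 81.8 and 84.1 CPM at 8 h, 310.4 and 329.6 CPM at day 1 and 345 and 356 CPM at day 2. It was 24.8-fold above 0 h at day 2 (4.63 ± 0.16, adjusted p = 2.44e-18). It was down to 37.6 and 30.0 CPM at day 4, still above 0 h (1.26 ± 0.20, adjusted p = 7.84e-06), and 0.836 CPM in the day 6 library. Trib3, a pseudokinase that restrains ATF4 and CHOP, had 39.0 and 38.9 CPM at 0 h, 78.9 and 70.2 CPM at 8 h, 172 and 175 CPM at day 1 and 201 and 202 CPM at day 2. Its libraries hardly spread, and the rise was 0.93 ± 0.17 at 8 h (adjusted p = 0.000333) and 2.37 ± 0.16 at day 2 (adjusted p = 2.34e-12). At day 4, with 25.5 and 31.3 CPM, Trib3 was lower than at 0 h at the margin of the test (adjusted p = 0.0497), and 7 of 9 alternative settings lost that call, among them leaving out day 4 replicate 1 (adjusted p = 0.294), 0 h replicate 1 (adjusted p = 0.124) or 0 h replicate 2 (adjusted p = 0.133). Slc7a11, the cystine transporter subunit xCT, had no read in the 0 h libraries, where 3 reads would have been 1.46 CPM. It was at 5.94 and 8.42 CPM at day 1, 5.26 and 13.6 CPM at day 2 and 2.16 and 5.37 CPM at day 4, so that the means of these days are 4.91, 6.46 and 2.58 times that limit. The lowest of these libraries, at 2.16 CPM, lay close to it. Asns, asparagine synthetase, started at 280.1 and 271 CPM and had 396.5 and 386 CPM at day 1 and 421 and 469.9 CPM at day 2. Both days lay above all 0 h and 8 h libraries, by 0.51 ± 0.11 (adjusted p = 0.000306) and 0.69 ± 0.11 (adjusted p = 5.41e-06) relative to 0 h.

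In serine synthesis, Phgdh, the first enzyme of the pathway, was at 348 and 316 CPM at 0 h and at 809.6 and 684 CPM at day 1, a rise of 1.17 ± 0.12 (adjusted p = 1.01e-08). Psat1, the aminotransferase that follows it, went from 374 and 400.3 CPM to 525 and 536 CPM at day 1, a rise of 0.45 ± 0.12 (adjusted p = 0.00352). By day 4 the counts of the pair had parted, although nearly all Phgdh reads mapped to more than 1 place, so its level is uncertain. Phgdh, at 452 and 471 CPM, remained above 0 h (0.48 ± 0.12, adjusted p = 0.00178), whereas Psat1, at 261 and 288 CPM, fell by 0.50 (adjusted p = 0.00175). Sesn2, a leucine sensor that restrains mTORC1, went from 33.1 and 35.9 CPM to 88.9 and 95.8 CPM at day 2 (1.42 ± 0.20, adjusted p = 2.28e-06) and was still at 71.8 and 70.2 CPM at day 4 (1.04 ± 0.21, adjusted p = 0.000136). The other day 4 call, Asns at 343 and 325 CPM (0.28 ± 0.11, adjusted p = 0.0295), was lost when either replicate of either group was left out (adjusted p = 0.054 to 0.156). In the 1 distinct DMSO library of day 6, Chac1, Trib3, Asns and Psat1 were at 0.836, 4.60, 105.8 and 69.4 CPM, each below every earlier DMSO library. Atf4 and Phgdh, at 416 and 191.5 CPM, were also below every earlier DMSO library, and Sesn2 was at 70.3 CPM.

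The wider pathway moved with the 10 genes only in part. Of 50 further genes listed by role, 48 had counted intervals and 46 passed the filter. At day 1, 25 of these rose (27.9% of all genes) and 9 fell (23.9%), and at day 2, 24 rose (25.4%) and 10 fell (22.6%). Of the 6 partner and related transcription factors 5 rose and 1 fell at day 1, of 9 enzymes 7 rose and 2 fell, and of 9 further targets 8 rose and none fell. The lipoprotein receptor Vldlr (4.29 ± 0.31) and the stress cytokine Gdf15 (3.6 ± 0.28) rose most, along with the transcription factor Atf3, which had no read at 0 h, 20.8 and 23.5 CPM at day 1 and 38.4 and 43.8 CPM at day 2. Of 7 transporters 2 were higher and 2 lower, near the shares of all genes, and of the 4 eIF2 kinases none rose and 1, Eif2ak1, fell. By day 4 the balance had turned to 9 higher (27.8%) and 21 lower (26.5%). Gdf15 had then fallen below 0 h by 1.95 and the co-regulator Nupr1 by 2.25, while Vldlr was still 3.66 ± 0.32 above it. Neighbouring stress pathways were measured in the same fit. Of 10 endoplasmic reticulum chaperones and other ATF6 or XBP1 targets 5 rose and none fell at day 1, and of 6 NRF2 targets, the oxidative stress genes, none rose and 2 fell.

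Cell identity markers moved over the same days. The ES cell marker sum was 3369 to 3535 CPM at day 1 and 1863 to 1944 CPM at day 2, and 6 and then 7 of its 7 genes fell relative to 0 h. The 5 primitive endoderm markers Gata6, Gata4, Sox17, Sox7 and Dab2 summed to 9.40 to 9.74 CPM at 0 h, 34.3 to 37.4 at day 1, 343 to 357 at day 2 and 1327 to 1333 at day 4, with 2 of 5 up at day 1 and 5 of 5 up at days 2 and 4. Their part in the changes of the response genes was not tested. In these bulk libraries, fewer cells with a transcript and less of it per cell cannot be told apart.

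**Figure D2:**
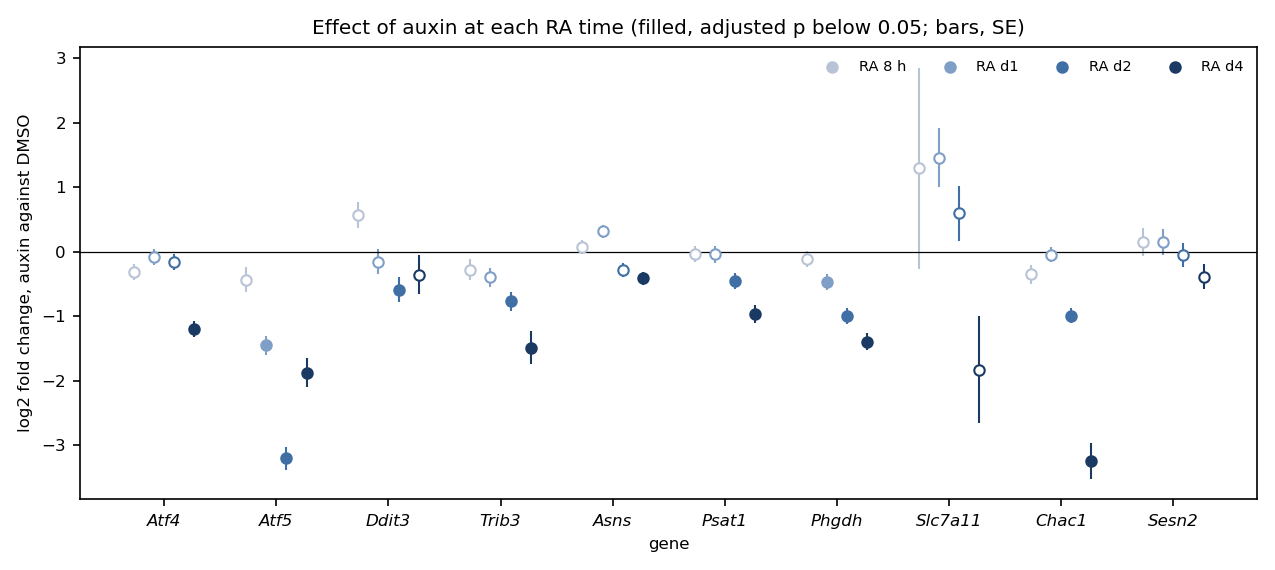
Log2 fold change of auxin against DMSO at each RA time for the 10 genes in Quant-seq, with bars for the standard error and filled symbols where adjusted p was below 0.05. Atf5 is at -1.45 at day 1 and -3.21 at day 2, and at day 4 all 10 genes lie below 0, 7 of them filled.

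With auxin, the members were at first close to their DMSO levels and on later days more of them were below these. At 8 h none of the 10 genes differed from DMSO in edgeR or DESeq2 (0.736% of all genes were lower), and 4 (Atf4, Atf5, Chac1 and Ddit3) had an unadjusted p below 0.05. At day 1, 2 were lower (3.49%), at day 2, 6 (8.09%), and at day 4, 7 (11.5%), of which 1, 1 and 5 were past 2-fold. No member was higher with auxin at any of these times at the adjusted threshold. The median of the 10 differences was -0.07 at day 1, -0.52 at day 2 and -1.30 at day 4. These comparisons use the same DMSO libraries as the RA time course, so the sets of values are not independent.

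With auxin Atf5 was at 38.0 and 39.1 CPM at 8 h and 94.6 and 108 CPM at day 1, where DMSO libraries had 309.8 and 244 CPM. At day 2 it was at 26.4 and 23.5 CPM against 216 and 247 CPM, and at day 4 at 16.9 and 13.3 CPM against 53.2 and 58.2 CPM. Auxin libraries lay below DMSO libraries at each of these 3 days, at 36.5%, 10.8% and 27.2% of the DMSO mean. The differences were -1.45 ± 0.15 (adjusted p = 5.9e-07), -3.21 ± 0.18 (adjusted p = 1.53e-12) and -1.88 ± 0.22 (adjusted p = 5.1e-07), and each kept its call in the 9 alternatives run. Ddit3, the other factor of this class, had 87.5 and 85.1 CPM with auxin at day 1 against 113 and 79.4 CPM, with groups that overlapped. At day 2 its 51.8 and 46.9 CPM against 72.6 and 76.4 CPM gave -0.59 ± 0.20 (adjusted p = 0.0455), a call that leaving out any of the 4 libraries removed (adjusted p = 0.108 to 0.232), as did DESeq2 (adjusted p = 0.191) and no TMM factors (adjusted p = 0.101). Atf4 itself was at 1305 and 1452 CPM with auxin at day 1 and 1506 and 1312 CPM at day 2, and differences of -0.09 ± 0.12 and -0.16 ± 0.12 did not pass the test. It fell below DMSO only at day 4, with 251 and 346 CPM against 717 and 660.3 CPM (-1.20 ± 0.13, adjusted p = 9.64e-08).

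Chac1 with auxin was within its error of DMSO at day 1 (-0.05 ± 0.11), with 318 and 301 CPM against 310.4 and 329.6 CPM, and lower afterwards. At day 2 it was at 177 and 174 CPM against 345 and 356 CPM, and at day 4 at 2.56 and 4.44 CPM against 37.6 and 30.0 CPM. The differences were -0.998 ± 0.12 (adjusted p = 9.17e-07) and -3.24 ± 0.28 (adjusted p = 2.23e-09), so that the day 4 level was 10.4% of DMSO by the means. Trib3 had 131 and 132 CPM at day 1 with auxin, 118 and 118 CPM at day 2 and 7.69 and 12.3 CPM at day 4, against 172 and 175, 201 and 202, and 25.5 and 31.3 CPM with DMSO. Auxin libraries were below DMSO libraries on all 3 days, and the difference passed at day 2 (-0.77 ± 0.14, adjusted p = 0.000423) and day 4 (-1.49 ± 0.25, adjusted p = 0.000105) but not at day 1 (-0.40 ± 0.15, adjusted p = 0.104).

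Asns and Slc7a11 were the genes whose auxin libraries stood above DMSO at day 1. Asns had 504 and 468 CPM against 396.5 and 386 CPM, a difference of 0.31 ± 0.11 (adjusted p = 0.0752). Slc7a11 had 23.8 and 15.6 CPM against 5.94 and 8.42 CPM, a difference of 1.46 ± 0.46 (adjusted p = 0.0543). Neither passed the test, although the libraries did not overlap. By day 4 Asns was at 237 and 263 CPM against 343 and 325 CPM and fell by 0.42 (adjusted p = 0.0067), a call lost without day 4 replicate 1 of auxin (adjusted p = 0.1) or of DMSO (adjusted p = 0.0729), and without TMM factors (-0.21, adjusted p = 0.147). Phgdh, whose reads nearly all mapped to more than 1 place, had lower counts with auxin from day 1 on. At day 1 it had 556 and 522 CPM against 809.6 and 684 CPM (-0.47 ± 0.12, adjusted p = 0.0159). Leaving out day 1 auxin replicate 1, auxin replicate 2 or DMSO replicate 1 removed that call (adjusted p = 0.0796, 0.155 and 0.228). Its later differences were -0.99 ± 0.12 at day 2 and -1.40 ± 0.13 at day 4, the latter from 146 and 204 CPM against 452 and 471 CPM. Psat1 was at 377 and 409.8 CPM against 526 and 548 CPM at day 2 (-0.45 ± 0.12, adjusted p = 0.0155), which any single omitted library (adjusted p = 0.051 to 0.15) or no TMM factors (adjusted p = 0.0566) removed, and at 157 and 124 CPM against 261 and 288 CPM at day 4 (-0.97 ± 0.14, adjusted p = 9.3e-06). Sesn2 did not pass at any time, with 41.0 and 67.1 CPM against 71.8 and 70.2 CPM at day 4 (-0.39 ± 0.20, adjusted p = 0.18).

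Across the wider pathway, auxin lowered 9 of 46 genes at day 1 (3.49% of all genes), 22 at day 2 (8.09%) and 23 at day 4 (11.5%). It raised none, none and 1, where 3.52%, 5.32% and 7.04% of all genes were higher. At day 2, 4 of 6 partner factors, 7 of 9 enzymes, 4 of 7 transporters and 7 of 9 further targets were lower, while no eIF2 kinase and no eIF2 or eIF2B subunit changed. Cth (-1.86 ± 0.17) and Nupr1 (-1.77 ± 0.20) had the largest differences at day 2, and the secreted factor Stc2 (-3.29 ± 0.63) and the amino acid transporter Slc7a5 (-1.78 ± 0.32) stood out at day 4. Ddit4 was the gene raised at day 4 (0.40 ± 0.14, adjusted p = 0.044). Of the endoplasmic reticulum list 1 of 10 was lower at day 2 and 3 at day 4. The primitive endoderm sum was also lower with auxin, 185 to 207 CPM at day 2 and 436.5 to 441 CPM at day 4, with 4 and 5 of 5 markers called down, beside 343 to 357 and 1327 to 1333 CPM with DMSO. The ES cell marker sum with auxin was 1207 to 1263 CPM at day 4 against 1804 to 1830 CPM. Their part in the lower response genes was not tested.

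Between day 4 and day 6 with auxin, 7 of the 10 genes rose (6.14%) and 2 fell (4.55%). Trib3 went from 7.69 and 12.3 CPM to 27.7 and 45.9 CPM (1.84 ± 0.26, adjusted p = 2.52e-05), and Ddit3 from 12.8 and 11.8 CPM to 33.2 and 46.6 CPM (1.67 ± 0.27, adjusted p = 0.000183). Atf5 rose from 16.9 and 13.3 CPM to 36.5 and 47.2 CPM (1.46 ± 0.24, adjusted p = 0.000214), Atf4 by 0.84 ± 0.13 to 518 and 555 CPM, and Sesn2 by 1.00 ± 0.19 to 101 and 117 CPM. Day 6 libraries lay above day 4 libraries for each of these 5 genes. Slc7a11 (2.72 ± 0.77, adjusted p = 0.0232) and Chac1 (1.26 ± 0.39, adjusted p = 0.0494) rested on 0.987 to 7.20 CPM and 2.56 to 10.1 CPM. Without auxin day 4 replicate 1, 4 rather than 7 genes rose, and the calls of Sesn2 (adjusted p = 0.0619), Chac1 (adjusted p = 0.31) and Slc7a11 (adjusted p = 0.118) were lost. Without auxin day 4 replicate 2, those of Slc7a11 (adjusted p = 0.136) and Chac1 (adjusted p = 0.0798) were lost, and without day 6 replicate 2 that of Chac1 (adjusted p = 0.29). The Chac1 call was also lost with no filter (adjusted p = 0.0573), without multimapped reads (adjusted p = 0.051) and in DESeq2 (adjusted p = 0.0954). Asns and Phgdh fell, with Asns down by 0.62 (adjusted p = 0.000783) to 149 and 177 CPM and Phgdh down by 0.47 (adjusted p = 0.0325), which day 6 replicate 1 (adjusted p = 0.122) or day 4 replicate 2 (adjusted p = 0.49) removed when left out. Psat1 differed by -0.23 (adjusted p = 0.345). Of the 46 other pathway genes 7 rose and 1 fell. At day 6 the auxin libraries held more Atf4, Trib3, Chac1, Slc7a11, Ddit3, Asns, Psat1 and Sesn2 than the single DMSO library, whose values are a description without a test. Phgdh, at 114 and 140 CPM, and Atf5 were below its 191.5 and 48.1 CPM.

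**Figure D3:**
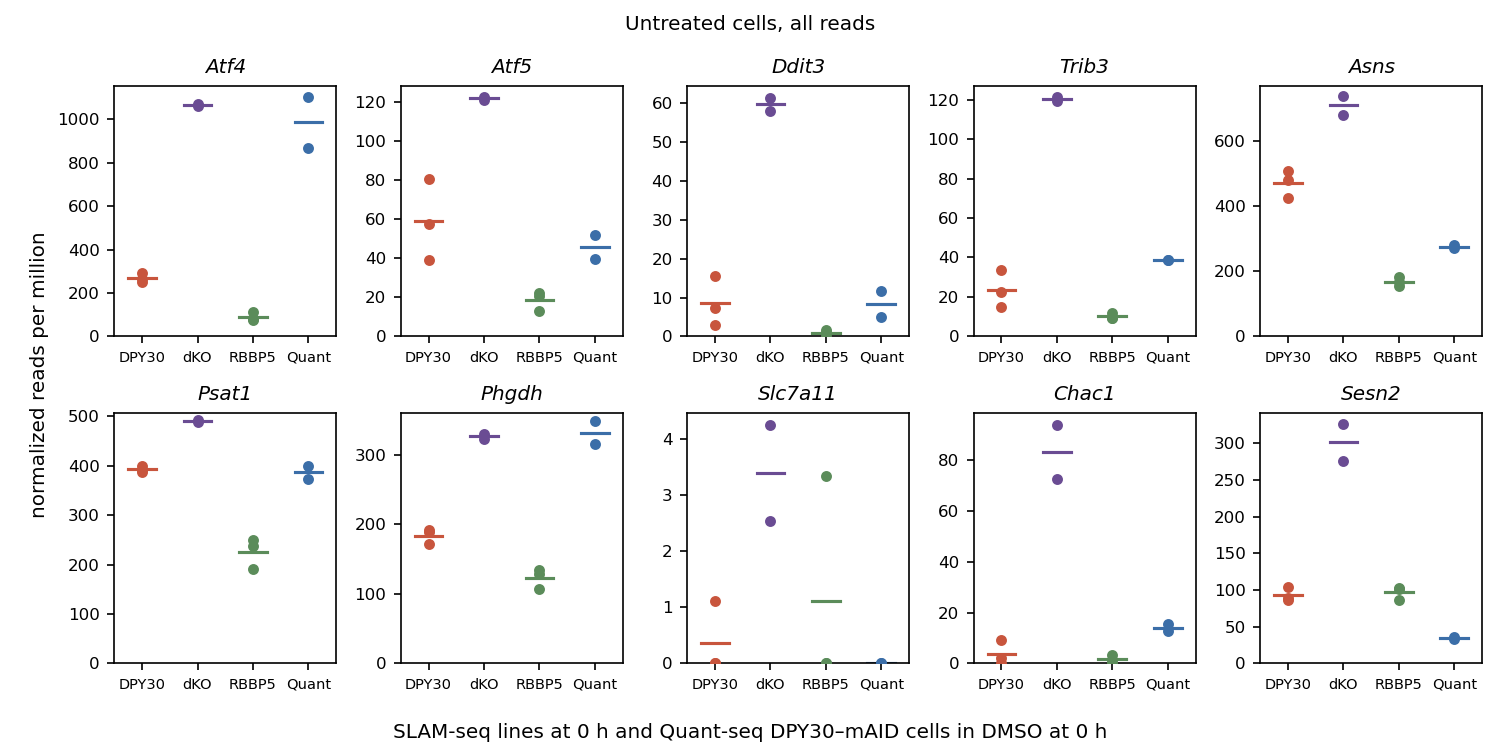
Levels of the 10 genes before ligand, in CPM, in SLAM-seq libraries of DPY30-mAID, dKO and RBBP5-FKBP cells and in Quant-seq DMSO libraries of DPY30-mAID cells. Points are libraries and lines are means. Atf4 in dKO, at 1063 and 1070 CPM, lies near the Quant-seq libraries of DPY30-mAID cells, at 868 and 1102 CPM, and above their SLAM-seq libraries, at 251 to 294 CPM.

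Before any ligand, the dKO libraries had more of nearly every member than the DPY30-mAID SLAM-seq libraries. Of the 10 genes 9 were higher and none lower (20.8% of all genes were higher), 6 of them past 2-fold, with a median of 1.86 beside 0.14 over all genes. Atf4 was at 1063 and 1070 CPM against 294, 251 and 266 CPM (2.01 ± 0.13, adjusted p = 1.88e-16), Trib3 at 121 and 119 CPM against 33.6, 14.7 and 22.5 CPM (2.40 ± 0.21, adjusted p = 1.11e-12), and Chac1 at 93.7 and 72.6 CPM against 2.00, 0 and 9.24 CPM (4.44 ± 0.50, adjusted p = 6.92e-10). Ddit3 at 61.4 and 58.1 CPM stood above 15.5, 7.36 and 2.96 CPM (2.88 ± 0.33), and Sesn2 at 276 and 326 CPM above 104, 89.1 and 86.1 CPM (1.72 ± 0.16). Atf5, Asns, Phgdh and Psat1 were higher by 1.09 ± 0.27, 0.62 ± 0.11, 0.85 ± 0.15 and 0.35 ± 0.11. No library of dKO overlapped a DPY30-mAID library in these 9 genes. The Psat1 call was lost without replicate 1 (adjusted p = 0.205) or replicate 2 (adjusted p = 0.207) of all groups and the Asns call without replicate 2 (adjusted p = 0.0575), and Phgdh turned to -6.10 once multimapped reads were set aside. Of the 46 pathway genes 22 were higher and 9 lower, where 20.8% of all genes were higher and 17.2% lower, among them the partner factor Cebpb (4.59 ± 0.66) and Nupr1 (3.04 ± 0.35) higher and the proline enzyme Pycr1 (-1.64 ± 0.28) lower. Of the cell markers and neighbouring stress genes, which are read against the same shares, 2 of 7 ES cell markers were higher and 3 lower, 2 of 5 primitive endoderm markers higher, 3 of 4 neural markers lower, 2 of 10 endoplasmic reticulum genes higher, and 2 of 6 NRF2 targets higher and 3 lower. Their part in this result was not tested.

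The line and the library set cannot be told apart in this comparison, since the dKO reads also covered fewer T positions and their libraries deeper. The Quant-seq DMSO 0 h libraries of DPY30-mAID cells, with T positions per read near those of dKO, are set beside them without a test. Atf4 was at 1102 and 868 CPM there, close to dKO, and its counted interval was only 80 bases long. Phgdh was likewise at 348 and 316 CPM beside 329.6 and 323 CPM in dKO and 171, 188 and 191 CPM in DPY30-mAID SLAM-seq libraries. For Ddit3 (11.7 and 5.13 CPM), Chac1 (12.7 and 15.4 CPM), Trib3 (39.0 and 38.9 CPM), Sesn2 (33.1 and 35.9 CPM) and Atf5 (51.6 and 39.7 CPM), the Quant-seq libraries were below dKO. Of these genes, Chac1 and Trib3 lay above every DPY30-mAID SLAM-seq library at 0 h, Sesn2 lay below every one, and Ddit3 and Atf5 overlapped with them. The RBBP5-FKBP line lay at the other end for several genes, with Atf4 at 115, 82.1 and 74.2 CPM, Asns at 166, 156 and 183 CPM and Atf5 at 22.1, 13.1 and 20.4 CPM.

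**Figure D4:**
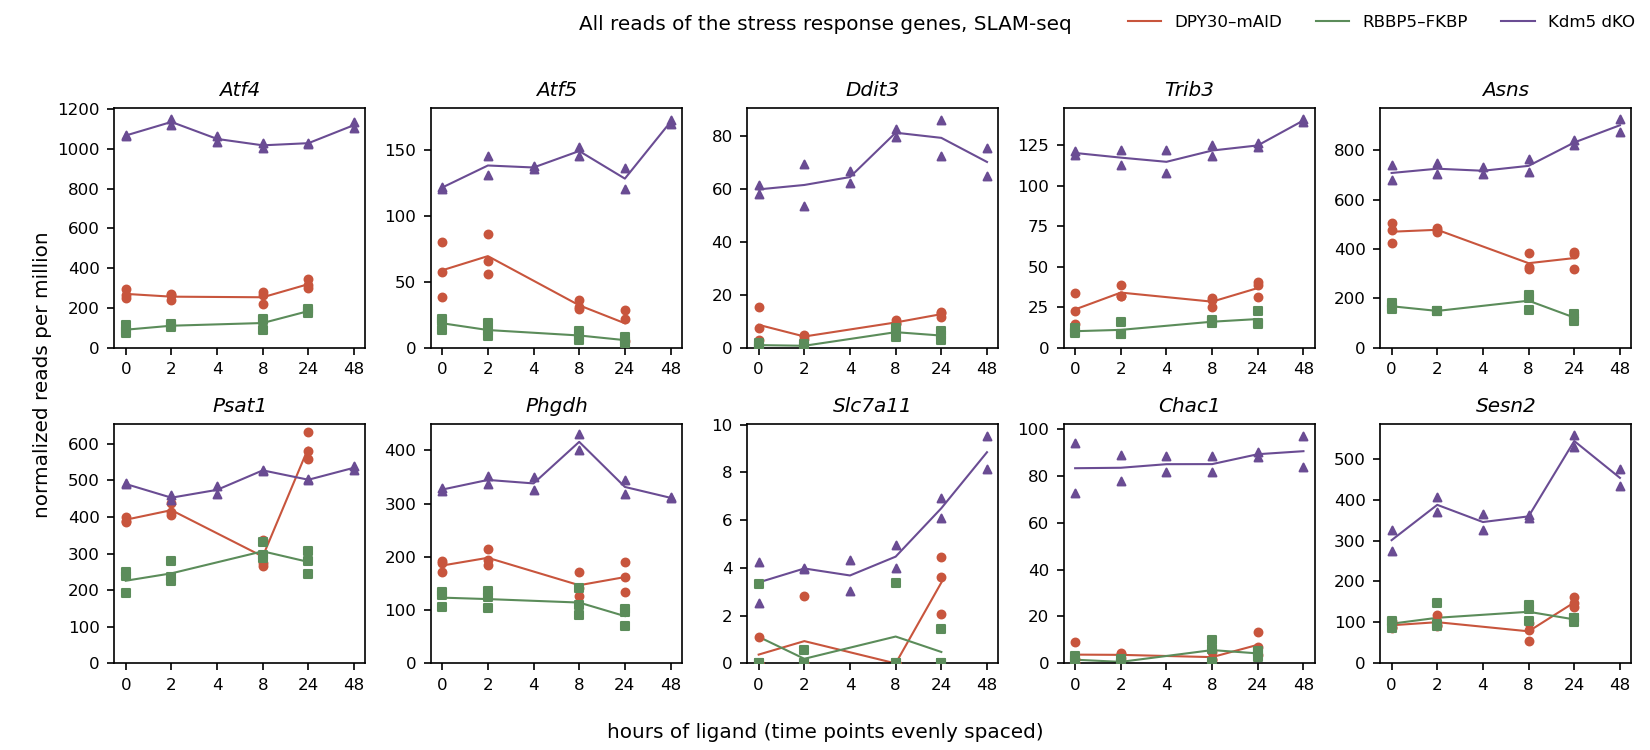
All reads of the 10 genes over ligand treatment in SLAM-seq, in CPM, with 1 panel a gene, 1 point a library and lines through the means, for DPY30-mAID, dKO and RBBP5-FKBP. Time points are evenly spaced. Atf5 in DPY30-mAID cells goes from 38.8 to 80.2 CPM at 0 h to 5.43 to 28.4 CPM at 24 h, and in dKO cells stays at 121 CPM or more.

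In undifferentiated cells, some members rose and others fell after COMPASS loss. After 2 h of auxin none of the 9 tested genes differed in DPY30-mAID cells in edgeR or DESeq2, none had an unadjusted p below 0.05, and 0.0305% of all genes were lower. At the earliest times no member passed in edgeR in the other sets either, namely total reads of RBBP5-FKBP at 2 h (0%) and dKO at 2 h (0%) and 4 h (0%), and T>C reads of DPY30-mAID (0%), RBBP5-FKBP (0.252%) and dKO (0%) at 2 h and dKO at 4 h (0.587%). Between 0 and 2 members had an unadjusted p below 0.05 in each of these, and DESeq2 called 1 member higher in dKO total reads at 2 h and none in the others. In DPY30-mAID cells at 8 h 3 were lower (7.61%), and at 24 h 2 were higher (15.9%) and 2 lower (17.1%). At 24 h these counts are near the shares of all genes. Atf5 was the member that declined furthest: 80.2, 57.4 and 38.8 CPM at 0 h, 29.1, 36.5 and 31.0 CPM at 8 h, and 28.4, 21.8 and 5.43 CPM at 24 h. The 8 h and 24 h libraries all lay below those of 0 h, with differences of -0.86 ± 0.29 (adjusted p = 0.0357) and -1.65 ± 0.30 (adjusted p = 1.78e-05). The 8 h call did not hold without replicate 1 (adjusted p = 0.4), replicate 2 (adjusted p = 0.125) or 8 h replicate 3 (adjusted p = 0.0957), without TMM factors (adjusted p = 0.0689) or in DESeq2 (adjusted p = 0.241), and the 24 h call held in all alternatives. Asns, at 479, 426 and 506 CPM, was at 325, 385 and 317 CPM at 8 h (-0.46 ± 0.11, adjusted p = 0.0024) and 379, 389.9 and 321 CPM at 24 h (-0.37 ± 0.11, adjusted p = 0.00572). Leaving out replicate 1 removed the 8 h call (adjusted p = 0.054), and leaving out replicate 3 the 24 h call (adjusted p = 0.132).

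Psat1 changed direction between the time points. It was at 390.4, 399.9 and 388 CPM at 0 h, 274, 336 and 267 CPM at 8 h and 558, 632 and 579 CPM at 24 h. Libraries of the 3 times did not overlap, and Psat1 fell by 0.43 at 8 h (adjusted p = 0.00415, but 0.0647 without replicate 1) and rose by 0.59 ± 0.10 at 24 h (adjusted p = 1.39e-05). Sesn2 rose at 24 h from 104, 89.1 and 86.1 CPM to 148, 162 and 137 CPM (0.68 ± 0.17, adjusted p = 0.00152, but 0.0539 without replicate 2). Atf4, at 346, 315 and 298 CPM at 24 h, differed by 0.24 ± 0.12 (adjusted p = 0.107), and Trib3 at 31.2, 38.7 and 40.5 CPM by 0.66 ± 0.28 (adjusted p = 0.0618). Ddit3 was at or below 15.5 CPM in all 12 libraries. Of 44 other pathway genes, 1 rose (5.38% of all genes) and 12 fell (7.61%) at 8 h, and 8 rose (15.9%) and 4 fell (17.1%) at 24 h. The enzymes Pck2 (-1.48) and Cth (-1.34) were the lowest at 8 h, and the aminotransferase Gpt2 (1.90) and the repressor Jdp2 (1.65) the highest at 24 h. The endoplasmic reticulum list had 4 of 10 genes higher at 24 h and none lower. Of 7 ES cell markers 4 fell at 8 h, and 2 rose and 2 fell at 24 h, while the primitive endoderm sum stayed at 25.4 CPM or less in all SLAM-seq libraries. Their part in these results was not tested.

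New RNA of Psat1 rose at 24 h, as its total did, but did not pass the test at 8 h (-0.63, adjusted p = 0.298). Its T>C CPM was 25.6, 12.9 and 16.6 at 0 h, 10.5, 18.7 and 6.11 at 8 h and 60.8, 61.5 and 83.6 at 24 h, from 152, 124 and 200 converted reads at the last time. All 24 h libraries lay above all others, and the rise of 1.91 ± 0.40 (adjusted p = 0.00267) was the only one among 7 tested genes (0.823%), lost without replicate 2 (adjusted p = 0.296). Sesn2 had 23.6, 16.2 and 17.7 T>C CPM at 0 h and 48.4, 47.1 and 44.3 at 24 h, which did not overlap and differed by 1.29 ± 0.41 (adjusted p = 0.0627). At 8 h the median of all genes in T>C reads was -0.71, and Atf5 was the member that fell (16.1%), by 3.25 (adjusted p = 0.0294) from 18, 8 and 6 converted reads to 1, 2 and 0. Atf5 stood 2.54 below the median of all genes, and its call was lost without replicate 1, 2 or 3 (adjusted p = 0.252, 0.167 and 0.0663) without 8 h replicate 3 alone (adjusted p = 0.0985) and with TMM factors from T>C reads (adjusted p = 0.146). Atf4 was at 106, 98.7 and 117 T>C CPM at 0 h and 71.5, 68.4 and 56.7 at 8 h, a difference of -0.71 ± 0.29 (adjusted p = 0.0804) equal to the median of all genes. At 24 h that median was -0.14. Of 30 other pathway genes 7 fell at 8 h and 1 at 24 h (2.79% of all genes), and none rose at either time.

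**Figure D5:**
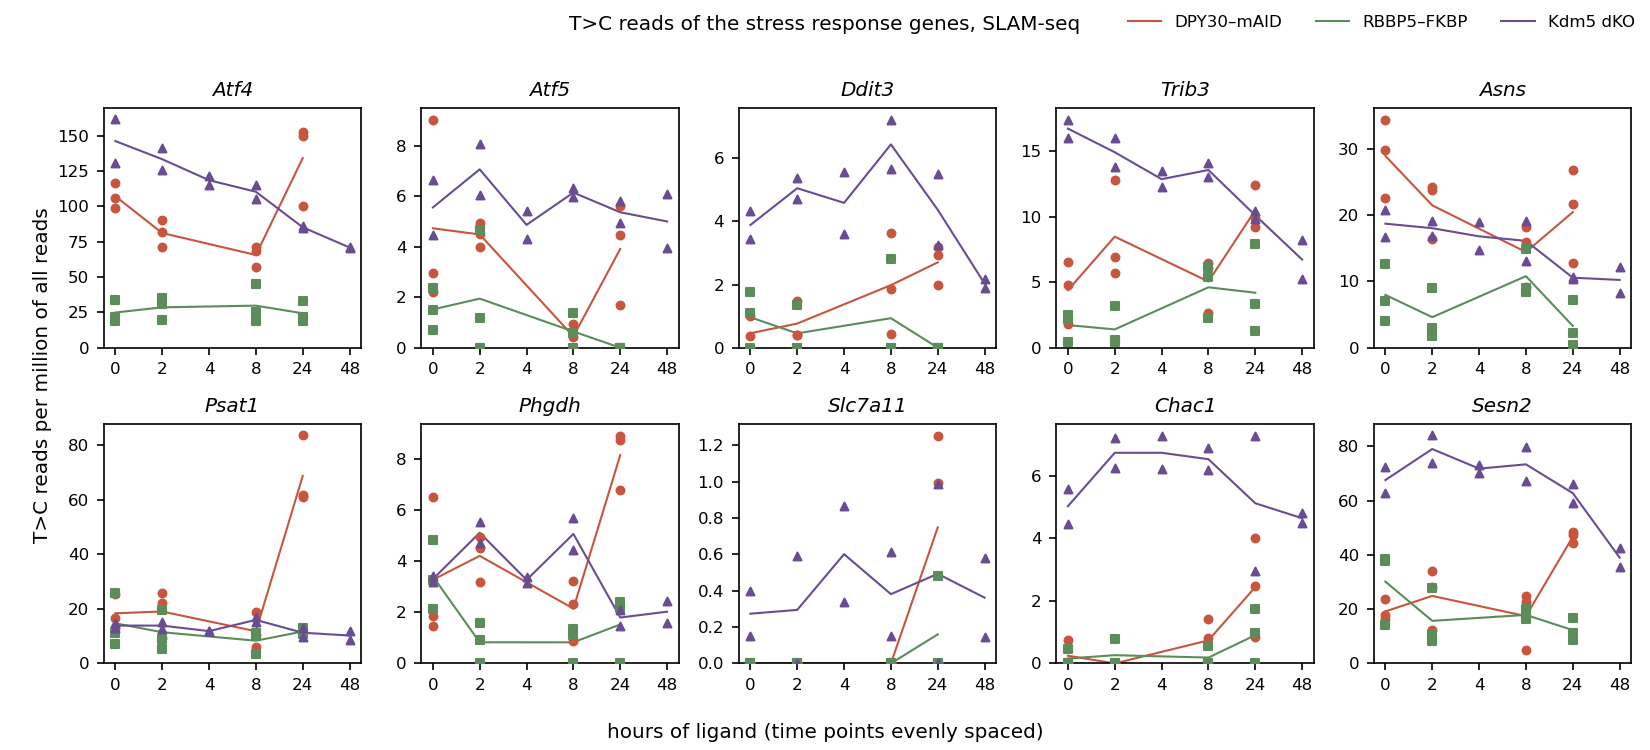
T>C reads of the 10 genes over ligand treatment in SLAM-seq, in T>C CPM, with 1 panel a gene, 1 point a library and lines through the means, for DPY30-mAID, dKO and RBBP5-FKBP. Time points are evenly spaced. Psat1 in DPY30-mAID cells reaches 60.8 to 83.6 T>C CPM at 24 h, while the other lines stay at 12.9 T>C CPM or less at that time.

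In RBBP5-FKBP cells, Atf4 mRNA rose and Atf5 mRNA fell. At 8 h of dTAG-13 none of 9 tested genes passed in edgeR (4.13% of all genes were higher), 4 had an unadjusted p below 0.05, and DESeq2 called 1 higher. At 24 h 1 was higher (2.99%) and 1 lower (4.49%). Atf4 went from 115, 82.1 and 74.2 CPM to 195, 184 and 173 CPM, without overlap, a rise of 1.03 ± 0.19 (adjusted p = 0.00117) kept in all alternatives. Atf5 went from 22.1, 13.1 and 20.4 CPM to 3.49, 8.40 and 5.28 CPM, a fall of 1.69 on the log2 scale (adjusted p = 0.0374) that was lost without replicate 1 (adjusted p = 0.308) or replicate 3 (adjusted p = 0.184) and with a replicate block (adjusted p = 0.0523). Ddit3, at 0, 1.78 and 1.11 CPM at 0 h, had 3.94, 7.29 and 6.34 CPM at 8 h and 6.11, 2.80 and 4.80 CPM at 24 h. Those libraries lay above 0 h without passing the test (adjusted p = 0.112 and 0.188). Asns at 121, 107 and 138 CPM was below its 0 h libraries of 166, 156 and 183 CPM at 24 h (-0.46 ± 0.16, adjusted p = 0.0768). Of 43 other pathway genes, 1 rose and 4 fell (5.12% of all genes) at 8 h, and 1 rose and 1 fell at 24 h, Ddit4 being the one that rose both times. In T>C reads none of 4 tested genes passed at 8 h by edgeR or DESeq2 (7.71%), with none at an unadjusted p below 0.05. At 24 h Sesn2 alone was lower (25.9%), at 11.4, 16.8 and 8.63 T>C CPM against 37.6, 14.2 and 38.6, where the groups overlapped. Its difference of -1.29 ± 0.42 (adjusted p = 0.0159) compares with a median of -0.91 over all genes, and it was lost without replicate 1 (adjusted p = 0.18) or replicate 3 (adjusted p = 0.223) and with TMM factors from T>C reads (adjusted p = 0.542). T>C Atf4 at 32.8, 21.5 and 18.7 CPM did not differ from 33.8, 18.8 and 21.9 CPM by more than its error (-0.02 ± 0.34).

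In dKO cells, auxin left the totals of most members where they had been, and where they moved they rose. At 8 h 1 gene was higher (0.316%), at 24 h 3 (5.05%) and at 48 h 4 (6.72%), and none was lower. Sesn2 went from 276 and 326 CPM at 0 h to 356 and 362 CPM at 8 h, 527 and 559 CPM at 24 h and 432 and 474 CPM at 48 h. It was 0.85 ± 0.09 higher at 24 h (adjusted p = 1.25e-05) and 0.59 ± 0.09 at 48 h (adjusted p = 0.000261), with no overlap. Asns climbed from 678 and 739 CPM to 821 and 843 CPM at 24 h (0.23 ± 0.06, adjusted p = 0.0284) and 875 and 929 CPM at 48 h (0.35 ± 0.06, adjusted p = 0.00172). Atf5, the gene that fell in both other lines, was at 122 and 121 CPM at 0 h and 173 and 169.9 CPM at 48 h, a rise of 0.50 ± 0.08 (adjusted p = 0.000583). Slc7a11 rose by 1.36 ± 0.29 at 48 h (adjusted p = 0.00462) at 8.15 and 9.54 CPM, from 2.53 and 4.25 CPM. Ddit3 at 24 h (0.41 ± 0.12, adjusted p = 0.0431) was lost without any of the 4 libraries (adjusted p = 0.0607 to 0.334) and in DESeq2 (adjusted p = 0.0634), Asns at 24 h without 24 h replicate 1, 24 h replicate 2 or 0 h replicate 1 (adjusted p = 0.113, 0.184 and 0.198), and Phgdh at 8 h (0.35 ± 0.07, adjusted p = 0.0235) without any of the 4 (adjusted p = 0.0759 to 0.234). Atf4 was between 1005 and 1149 CPM in all 12 libraries, and Chac1 between 72.6 and 97.0 CPM. Of 46 other pathway genes, 3 rose and 4 fell at 24 h and 6 rose and 7 fell at 48 h, where 6.44% and 7.84% of all genes fell. Of the endoplasmic reticulum list 5 of 10 fell at both times and none rose. Of 6 NRF2 targets Gclc and Nqo1 rose at both times and Hmox1 at 48 h, while Txnrd1 fell at both. Of 7 ES cell markers Esrrb, Pou5f1 and Tdgf1 fell at 24 h, and Klf4 and Tdgf1 fell and Nanog rose at 48 h. The part of these genes in the member values was not tested.

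T>C reads of dKO cells declined across the transcriptome, so member values are read against that shift. At 8 h none of 9 tested genes passed in edgeR or DESeq2 (1.54%), with 2 at an unadjusted p below 0.05. At 24 h 3 were lower (43%) and at 48 h 5 (72.2%) of the members tested, with medians of -0.30 and -0.79 beside -0.80 and -1.29 over all genes. Atf4 went from 130.2 and 162 T>C CPM to 84.5 and 85.7 at 24 h and 71.3 and 70.4 at 48 h, and Trib3 from 17.4 and 16.1 to 10.4 and 9.80 and then 5.24 and 8.24. Both fell without overlap, by 1.05 and 1.31 at 48 h (adjusted p = 8.02e-10 and 1.48e-06). Relative to the median of all genes Atf4 stood 0.25 above and Trib3 was at -0.02. Asns and Sesn2 fell by 0.87 and 0.79 at 48 h and stood 0.42 and 0.50 above that median. Ddit3 (adjusted p = 0.0292) was lost without 48 h replicate 1, 48 h replicate 2 or 0 h replicate 1 (adjusted p = 0.0619, 0.111 and 0.134), with no filter (adjusted p = 0.0632) and in DESeq2 (adjusted p = 0.0743). At 24 h the Asns call was lost without 0 h replicate 2 (adjusted p = 0.0544) and the Trib3 call without 24 h replicate 2 (adjusted p = 0.0623). The T>C share of Atf4 reads went from 12.3 and 15.1% at 0 h to 6.46 and 6.20% at 48 h and that of Trib3 from 14.4 and 13.5% to 3.75 and 5.84%, beside 2.56% and 1.69% in the unlabelled Quant-seq libraries. The part of such background in the T>C values was not tested. With library sizes taken from the T>C reads instead, no member fell (3.72% of all genes) and 1 rose (2.21%) at 24 h, and none fell (5.05%) and 4 rose (2.51%) at 48 h.

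The responses of the lines were compared directly by the difference between their ligand effects, which share the DPY30-mAID libraries. In total reads RBBP5-FKBP differed from DPY30-mAID at 8 h for 2 members (2.55%), Psat1 by 0.88 ± 0.15 (adjusted p = 0.000247) and Asns by 0.65 ± 0.15 (adjusted p = 0.00859). Both had fallen in DPY30-mAID cells at that time. The Psat1 difference was lost without replicate 2 (adjusted p = 0.077) and that of Asns without replicate 1 (adjusted p = 0.34) or 2 (adjusted p = 0.21). At 24 h Atf4 differed by 0.79 ± 0.18 (adjusted p = 0.00181), the single member higher (8.59%). The effect in dKO exceeded that in DPY30-mAID at 24 h for 2 members (4.96%), Atf5 by 1.73 ± 0.40 (adjusted p = 0.00371) and Asns by 0.60 ± 0.16 (adjusted p = 0.013), and was lower for 1 (4.46%), Psat1, by -0.55 ± 0.16 (adjusted p = 0.0231). Leaving out replicate 1 or 2 of all groups removed these 3 calls (adjusted p = 0.0538 to 0.549). In T>C reads at 24 h the RBBP5-FKBP effect was lower for 3 members (11.4%) and the dKO effect for 1 (1.35%). Psat1 was -2.23 ± 0.55 in RBBP5-FKBP (adjusted p = 0.00286) and -2.22 ± 0.58 in dKO (adjusted p = 0.0331), beside medians of -0.62 and -0.70 over all genes. Sesn2 in RBBP5-FKBP was -2.58 ± 0.48 (adjusted p = 5.37e-05), and the call held whichever replicate was left out. The third, Ddit3, rested on 8, 4 and 7 converted reads in DPY30-mAID and none in RBBP5-FKBP cells at 24 h. Without replicate 1 or 2, the calls of Psat1 (adjusted p = 0.169 and 0.117 in RBBP5-FKBP, 0.319 and 1 in dKO) and Ddit3 (adjusted p = 0.0977 and 0.358) were lost. With TMM factors from T>C reads the Psat1 difference in dKO was -1.59 and its call was lost (adjusted p = 0.223).

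The likeness of the members to each other was described over the libraries of each assay. Over the 21 distinct Quant-seq libraries, the correlation of a member with the mean of the other 9 on the log scale was 0.95 for Chac1, 0.921 for Trib3 and 0.878 for Atf4, and 0.259 for Sesn2. Over the 36 SLAM-seq libraries, with each line centred on its own mean, it was at most 0.687, for Psat1, with 0.640 for Sesn2 and -0.248 for Atf5. Outside the set, the genes most like the member mean were Stc2 (0.961), Hrk (0.933) and Herpud1 (0.933) in Quant-seq, out of 11415 genes, and Cope (0.797) and Aen (0.795) in SLAM-seq, out of 11562. These are descriptions over libraries that share time points and lines.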

How the data were processed

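The deposited tables hold counts of all reads and of T>C reads over annotated 3′ intervals, made by the authors with SlamDunk 0.3.4 on GRCm38 per the file headers, without molecular identifiers, from QuantSeq 3′ libraries of SLAM-seq and Quant-seq samples. The methods name HISAT2 2.2.1 for Quant-seq, so its processing is uncertain. The deposited T>C counts include reads with 1 conversion, and the part of background in them was not tested. The counts of 46420 intervals were summed per gene. The 10 members and all gene lists were chosen with earlier results of these data known. Groups came from the sample titles. Genes with a mean count of at least 10 in 1 group or more were tested with edgeR 4.0.16 in R 4.3.3 (quasi-likelihood test, TMM factors from all reads, also for T>C reads), by line for SLAM-seq, jointly for differences between lines and in 1 fit for Quant-seq. Calls needed an adjusted p below 0.05, and a change past 2-fold a log2 fold change over 1. The fits were tested on simulated data. Alternatives were DESeq2 1.42.0, no TMM factors or factors from T>C reads, no filter or one at 50, no multimapped reads, a replicate block, and leaving out replicates. All members were named. Of the other pathway genes, at most the 3 with the largest change in each direction that passed a contrast were named, plus genes a sentence turns on. Replicates are biological per the study, but how far they are separate cultures was not stated, and p-values measure the spread between these libraries. Limits of 3 reads and exact binomial 95% intervals cover counting error only.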

Additional observations from a re-analysis of the deposited data

Results flagged for a closer look

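The effect of ligand differed between lines, by a direct test of the difference, for 10 combinations of gene, time and read type, in contrasts where 1.35 to 11.4% of all genes passed in the same direction. Leaving out 1 replicate ended 8 of these calls, and those of Sesn2 in T>C reads and Atf4 in total reads, both for RBBP5-FKBP at 24 h, held in the alternatives run. In T>C reads at 24 h the effect in RBBP5-FKBP minus that in DPY30-mAID was -2.23 for Psat1, -2.58 for Sesn2 and -7.58 for Ddit3, and the effect in dKO minus that in DPY30-mAID was -2.22 for Psat1. The Ddit3 value is a fitted one against libraries without a converted read and is no measure of size. In total reads the RBBP5-FKBP difference was 0.65 for Asns and 0.88 for Psat1 at 8 h and 0.79 for Atf4 at 24 h. The dKO difference at 24 h was 0.60 for Asns, 1.73 for Atf5 and -0.55 for Psat1.

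T>C reads also appeared in the Quant-seq libraries, which had no 4-thiouridine and whose T>C share over all genes was 0.303 to 0.388% per library. In these, 2.56% of Atf4 reads carried a conversion (975 of 38024, exact binomial 95% interval 2.41 to 2.73%), with 1.58 to 3.44% in single libraries. The share was 1.69% for Trib3 (1.27 to 2.2%), 1.07% for Chac1 (0.800 to 1.40%), 0.819% for Sesn2 (0.514 to 1.24%) and 0.586% for Asns (0.460 to 0.737%). The Atf4 share in labelled DPY30-mAID libraries at 0 h was 35.9 to 43.9%, and in dKO it was 12.3 to 15.1% at 0 h and 6.20 to 6.46% at 48 h. The Trib3 share in dKO was 3.75 to 5.84% at 48 h. For Slc7a11, 0 of 222 reads carried one, for which the exact upper limit was 1.65% and the limit of 3 reads 1.35%.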

How the results depend on the processing

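Of 632 alternative counts of members called, 567 stayed within 1.5 times the reported count, and of 854 alternatives for single called members 744 kept their call, 104 lost it and 6 changed sign.
With TMM factors from T>C reads, the members lower in T>C reads were 0 in DPY30-mAID at 8 h, 0 in RBBP5-FKBP at 24 h, 0 in dKO at 24 and 48 h and 0 in the dKO minus DPY30-mAID difference at 24 h, and those higher were 2 in DPY30-mAID at 24 h and 1 and 4 in dKO at 24 and 48 h. In dKO this turned Trib3 at 24 h to 0.0044 and Ddit3, Sesn2, Asns and Atf4 at 48 h to 0.26, 0.40, 0.31 and 0.15.
A filter at a mean of 50 gave 2 lower at 8 h and 2 higher at 24 h in DPY30-mAID T>C reads. DESeq2 gave 2 lower in DPY30-mAID T>C reads at 8 h, 1 higher at 8 h and 2 lower at 24 h in RBBP5-FKBP total reads, 3 lower in the dKO T>C difference at 24 h and 4 higher in the RBBP5-FKBP total difference at 8 h, and it gave no adjusted p for Atf5 T>C in DPY30-mAID at 8 h and Slc7a11 at auxin day 6.
Without TMM factors 1 member was higher in RBBP5-FKBP at 8 h and 7 in dKO at 48 h. In dKO total reads at 2 h, where none was reported higher, 1 was higher with no filter, 1 in DESeq2 and 0 to 1 on leaving out libraries. With no filter 3 were higher in dKO at 8 h and 1 with auxin at day 1. Without multimapped reads, which removes nearly all Phgdh reads, 0 were higher in dKO at 8 h, 1 was lower in dKO against DPY30-mAID at 0 h (Phgdh, -6.10), 1 was lower with auxin at day 1 and 1 at auxin day 6 against day 4.
Leaving out replicates gave ranges of members called. In DPY30-mAID T>C reads 0 to 1 were lower at 8 h and 0 to 2 higher at 24 h. In its total reads 0 to 3 were lower at 8 h, and 1 to 3 were higher and 1 to 2 lower at 24 h. In RBBP5-FKBP at 24 h 0 to 1 were lower in T>C and 0 to 1 in total reads. In dKO 0 to 1 were lower in T>C reads at 8 h, 0 higher in total reads at 8 h and 1 to 3 at 24 h. For line differences in T>C reads at 24 h 1 to 4 were lower for RBBP5-FKBP and 0 to 5 for dKO. In total reads 1 to 3 were higher for RBBP5-FKBP at 8 h, and 0 to 2 higher and 0 to 2 lower for dKO at 24 h. In Quant-seq 1 to 3 were lower at RA day 4, 1 to 2 lower with auxin at day 1, and 4 to 7 higher and 1 to 2 lower at auxin day 6. In dKO, leaving out 1 replicate of all groups left no spread to estimate, so single libraries were left out, a choice made after seeing the data.
Replicate numbers showed little pairing on average, with a mean correlation of same-numbered deviations of -0.008 to 0.045 over the sets of libraries. Single pairs ran from -0.112 to 0.311 in dKO total reads and from -0.149 to 0.238 in Quant-seq, so pairing is not excluded. With a replicate block 0 members rather than 1 were lower in RBBP5-FKBP total reads at 24 h, where Atf5 was at -1.68 (adjusted p = 0.0523), and Trib3 at RA day 4 was lost (adjusted p = 0.0507). The cause of these shifts was not tested beyond the counts themselves. Depth limits Slc7a11 everywhere, Chac1 and Ddit3 in DPY30-mAID and RBBP5-FKBP cells, and most T>C values in DPY30-mAID and RBBP5-FKBP cells, where Psat1 had 8 to 200 and Sesn2 11 to 121 converted reads per library.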
